A study of Rattus norvegicus with 22 samples.

Results

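The genes described are 10 junction and transporter genes of the blood-spinal cord barrier, namely Cldn5, Ocln, Tjp1, Lsr, Slc2a1, Slc7a5, Mfsd2a, Slco1a4, Abcb1a and Abcg2. They were taken by gene symbol from the table of read counts, in which they are 10 of 32883 genes. All 10 passed the filter on low counts in each comparison. The study sequenced RNA from the ventral spinal cord at cervical segments C3 to C6 of Sprague-Dawley rats aged 3 to 4 months, to ask how loss of the gonads alters gene expression in each sex. Males were intact (n = 5) or had had the testes removed (GDX, n = 5), and females were intact (n = 6) or had had the ovaries removed (OVX, n = 6). GDX and OVX tissue was collected 2 weeks after surgery, which was done under isoflurane with buprenorphine as analgesic, and all rats were perfused with saline before dissection. No sham operation of the intact rats is described, and without one anaesthesia, analgesic and wound cannot be told apart from loss of the gonads. Each rat gave 1 library, with totals from 12371756 to 17571887 counted reads.

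The barrier is formed by endothelial cells of the cord's capillaries, which tight junctions join into a sheet that blocks passage between the cells. Claudins, occludin and angulins form the junction strands in the membrane, and scaffold proteins tie the strands to the cytoskeleton. Nutrients then need carriers in the endothelial membrane, while efflux pumps return many drugs, conjugated steroids and other lipophilic molecules to the blood.

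Levels are given as CPM (reads of a gene scaled to a fixed library total) after TMM scaling over the 22 libraries. They are compared between groups within 1 gene and not between genes, since gene lengths were not used. The exception is the most abundant gene of a list, which means the highest mean CPM with no correction for gene length. Differences are log2 fold changes with their standard error (SE) from edgeR's quasi-likelihood test. A gene is called where the p-value adjusted over all genes tested (Benjamini-Hochberg) was under 0.1. The libraries came in 2 classes of input fragment length, and the 7 with long input fragments were all from intact rats, namely intact males 1, 3 and 6 and intact females 2, 3, 5 and 6. The other 15, among them every GDX and OVX library, had short input fragments. Fragment class is thus unevenly spread over the groups compared, and values within the short class are given beside many of the results. Reads of motor neuron and endothelial genes were present: Prph averaged 235 CPM, and Flt1 ranged from 25.4 to 79.4 CPM over the 22 rats. These levels cannot check the tissue label, since no other tissue was sequenced.

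In males, the question was whether the barrier genes differ 2 weeks after removal of the testes. All 4 junction genes (Cldn5, Ocln, Tjp1 and Lsr), the glucose carrier Slc2a1, the organic anion carrier Slco1a4 and the efflux pump Abcb1a were higher in GDX than in intact rats, and each passed the test. Lsr rose most, by 86.0%, and Tjp1 least, by 10.4%. Slc7a5, Mfsd2a and Abcg2 did not pass. The count of 7 called members of 10, all higher, stands against 13.4% of the 14931 genes tested that were called in either direction and 6.78% that were called higher. The 1995 genes behind the first share were 1202 without GDX male 5, and 1419 to 2446 without each other rat. The members were chosen with earlier results of these data known, so the shares are given as a scale and not as a test. The median log2 fold change of the 10 members was 0.30, with 9 of 10 above 0, and over all genes tested it was 0.00209. In 5 members (Ocln, Tjp1, Lsr, Slco1a4 and Abcb1a) the lowest GDX rat was above the highest intact rat, a pattern found in 3.53% of all genes tested. Because these are bulk samples, more cells of a type and more RNA per cell cannot be told apart.

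The male count differed when library class was taken into account. With fragment class as a term in the fit 2 members were called (Lsr and Abcb1a), and with only the short fragment libraries, which left 2 intact males, 3 were called (Lsr, Slco1a4 and Abcb1a). The log2 fold changes of the 10 members within the short libraries ran from -0.029 for Mfsd2a to 0.98 for Lsr, each of the same sign as with all libraries. Between them lay Tjp1 (0.13), Slc7a5 (0.13), Slc2a1 (0.26), Abcb1a (0.26), Abcg2 (0.27), Cldn5 (0.33), Ocln (0.34) and Slco1a4 (0.36). The same settings called 796 of all 14931 genes with the class term and 440 of 15553 within the short libraries. With the class term Slc2a1 (0.26, SE 0.082) and Tjp1 (0.13, SE 0.062) lost their calls at nearly the same fold and a larger error. Ocln (0.34 against 0.58), Cldn5 (0.33 against 0.48) and Slco1a4 (0.36 against 0.45) lost theirs at a smaller fold.

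**Figure D1:**
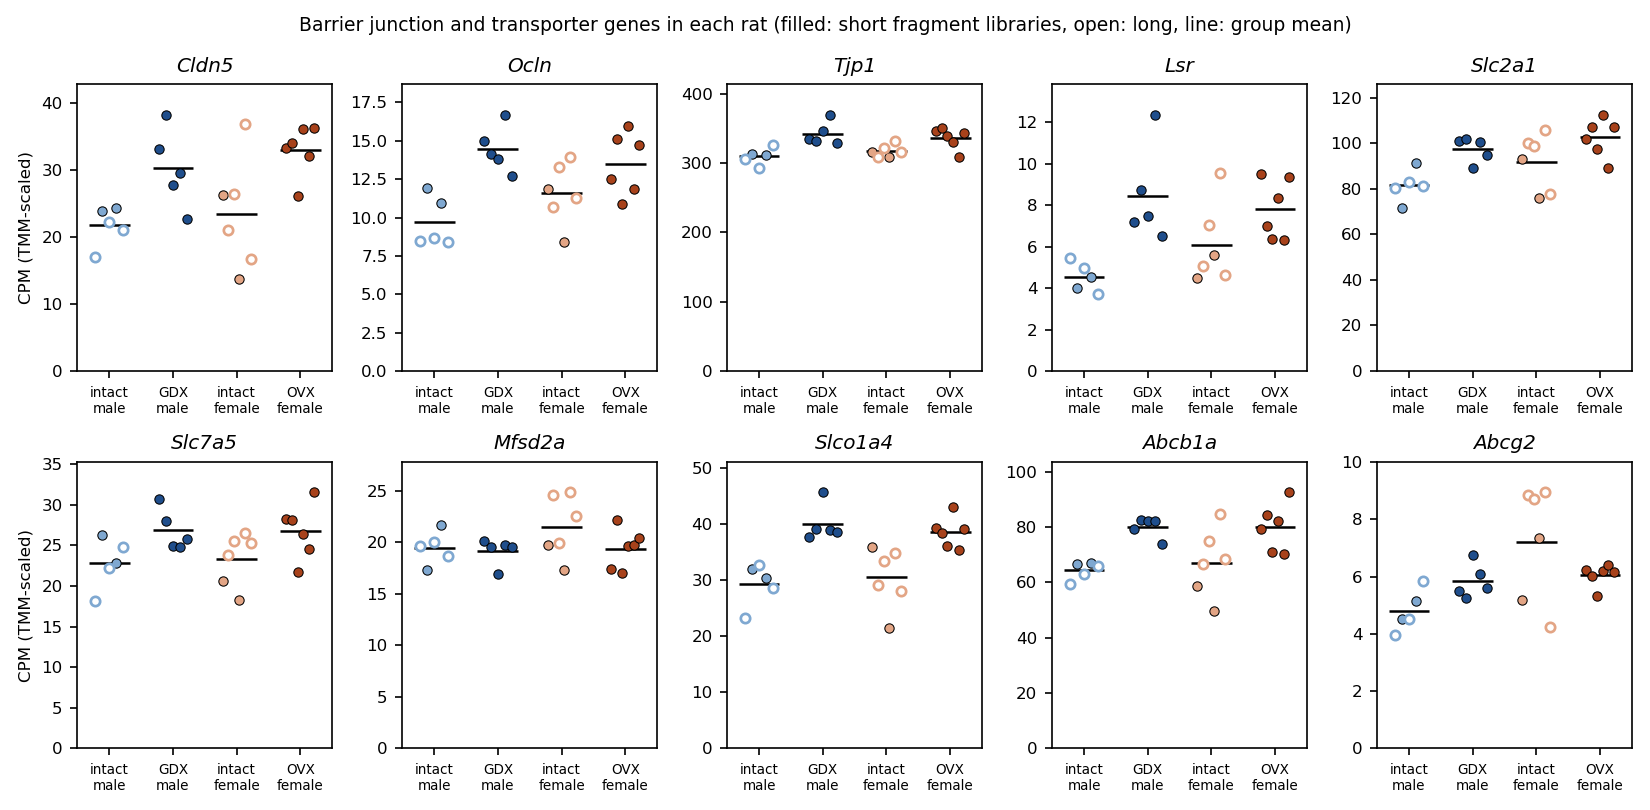
Level of each barrier gene in every rat, in CPM after TMM scaling, with filled points for short and open points for long fragment libraries and a line at each group mean (n = 5, 5, 6 and 6). Abcb1a lay between 73.8 and 82.4 CPM in GDX males and between 59.3 and 66.9 in intact males.

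Because 7 members rose together in GDX males, the promoters of the 10 were looked up, and 9 matched (none for Mfsd2a). The sequences are credited to RefSeq, build GRCr8, which is not the build the reads were counted on (Rnor_6.0), and each runs from 250 bases before to 50 after the gene's start. Capitals mark every match to the motifs listed after the sequences. Lsr and Abcb1a are printed because they were called under each class setting, Slco1a4 as 1 of the 2 called members with no motif match (the other is Ocln), and Cldn5 because it followed the endothelial markers most closely.
Cldn5 promoter, chr11:95718549-95718848, minus strand: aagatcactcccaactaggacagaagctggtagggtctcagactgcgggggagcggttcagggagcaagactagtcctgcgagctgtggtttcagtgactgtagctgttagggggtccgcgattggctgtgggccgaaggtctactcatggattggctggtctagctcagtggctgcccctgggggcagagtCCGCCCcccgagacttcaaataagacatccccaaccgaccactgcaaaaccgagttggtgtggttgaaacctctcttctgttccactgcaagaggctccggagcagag
Lsr promoter, chr1:95329305-95329604, minus strand: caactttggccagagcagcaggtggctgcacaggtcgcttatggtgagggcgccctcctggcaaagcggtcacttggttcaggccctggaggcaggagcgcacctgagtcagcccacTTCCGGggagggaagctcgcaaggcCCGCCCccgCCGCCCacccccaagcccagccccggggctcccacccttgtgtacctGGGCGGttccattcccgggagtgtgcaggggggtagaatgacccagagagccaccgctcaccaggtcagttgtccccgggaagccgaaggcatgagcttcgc
Slco1a4 promoter, chr4:176495797-176496096, minus strand: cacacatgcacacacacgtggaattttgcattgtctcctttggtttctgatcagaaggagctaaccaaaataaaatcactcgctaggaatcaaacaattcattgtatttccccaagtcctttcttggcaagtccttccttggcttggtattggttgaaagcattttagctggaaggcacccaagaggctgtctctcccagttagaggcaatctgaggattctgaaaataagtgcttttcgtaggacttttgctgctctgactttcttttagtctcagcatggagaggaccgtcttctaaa
Abcb1a promoter, chr4:26397599-26397898, minus strand: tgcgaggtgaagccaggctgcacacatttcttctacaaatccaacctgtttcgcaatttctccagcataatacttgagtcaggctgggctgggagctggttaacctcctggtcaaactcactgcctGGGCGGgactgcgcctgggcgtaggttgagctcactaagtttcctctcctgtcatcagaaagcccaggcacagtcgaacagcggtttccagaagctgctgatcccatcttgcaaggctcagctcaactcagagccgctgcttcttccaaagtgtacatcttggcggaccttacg

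The motifs were searched on both strands, and the share of all 33469 promoters of 300 bases that hold each is given. The GC box GGGCGG was in 6 of 9 member promoters (Cldn5, Lsr, Slc2a1, Slc7a5, Abcb1a and Abcg2), against 33.1% of all. The share of G and C in these 6 ran from 53.7% in Abcb1a to 69.3% in Slc7a5, and the median over all promoters was 51.7%. Without a GC box, Ocln had 65.3%, Slco1a4 43% and Tjp1 33.7%. The part of base composition in the count of GC boxes was not tested. An ETS core, CCGGAA, was in the Lsr promoter alone (1 of 9, against 15% of all), and the SOX motif ACAAAGG in the Tjp1 promoter alone (1 of 9, against 5.88%). The TATA box motif TATAAA was in the Slc2a1 promoter alone (1 of 9, against 14.2%), where it began 24 bases after the listed start. The TCF/LEF motif CTTTGAT was in 0 of 9 (3.63% of all). The palindromic oestrogen response element, GGTCA and TGACC with any 3 bases between them, was in 0 of 9 member promoters, against 0.0269% of all. The androgen response element, AGAACA and TGTTCT with any 3 bases between them, was in 0 of 9, against 0.0149%, and its arm AGAACA, which overlaps it, in 0 of 9, against 20.7%. In the 4 printed promoters the capitals are the GC box, 1 in Cldn5, 3 in Lsr and 1 in Abcb1a, and the ETS core in Lsr. No match says only that these letters are absent from these 300 bases. Whether the listed starts are those used in the cord was not tested.

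Among the junction genes, Cldn5 (ENSRNOG00000045811) encodes the claudin that seals the strands between endothelial cells. Its level in intact males was 17.1 CPM in rat 1, 23.9 in rat 2, 22.3 in rat 3, 24.4 in rat 5 and 21.1 in rat 6. In GDX males it was 33.1 CPM in rat 1, 38.2 in rat 2, 27.7 in rat 4, 29.6 in rat 5 and 22.7 in rat 6. The groups overlapped at 1 point, since GDX rat 6 lay below intact rats 2 and 5, and the other 4 GDX rats were above every intact male. Cldn5 rose by 0.48 on the log2 scale (SE 0.12, 95% interval 0.22 to 0.74, adjusted p = 0.0274), which is 39.5%. In intact females Cldn5 was 13.8 CPM (lowest), 23.6 (median) and 36.8 (highest). OVX females had 26.2 CPM (lowest), 33.7 (median) and 36.3 (highest). The spread over intact females was the widest of the 4 groups for this gene, with an SD of 8.25 CPM against 2.93 to 5.80 in the others, and all 6 OVX females were above the intact median.

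Occludin, the product of Ocln (ENSRNOG00000018297), is a membrane protein of the same strands. Ocln in intact males was 8.50 CPM in rat 1, 11.9 in rat 2, 8.68 in rat 3, 10.9 in rat 5 and 8.40 in rat 6. Its level in GDX males was 14.99 CPM in rat 1, 14.1 in rat 2, 13.8 in rat 4, 16.7 in rat 5 and 12.7 in rat 6. Every GDX rat was above every intact male, and the 2 intact males of the short class, rats 2 and 5, were the highest of their group. Ocln rose by 0.58 (SE 0.11, adjusted p = 0.00848), or 49.2%, and within the short libraries the difference was 0.34 and did not pass. Intact females had 8.38 CPM (lowest), 11.6 (median) and 13.9 (highest) for Ocln. OVX females had 10.9 CPM (lowest), 13.6 (median) and 15.9 (highest). The female ranges overlapped, and 3 of 6 OVX rats were above the highest intact female.

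Tjp1 (ENSRNOG00000011077) encodes the scaffold protein ZO-1, which is also made by many cells outside vessels. Intact males had 307 CPM in rat 1, 313 in rat 2, 293 in rat 3, 311 in rat 5 and 326 in rat 6 for Tjp1. GDX males had 334 CPM in rat 1, 331 in rat 2, 346 in rat 4, 369 in rat 5 and 329.6 in rat 6. The groups did not overlap, though the closest pair, intact rat 6 and GDX rat 6, lay near each other. The rise of Tjp1 was 0.14 (SE 0.045, adjusted p = 0.0653), and the call rested on the full set of rats: it was lost without intact male 1, 2, 3 or 5 or without GDX male 4 or 5, with adjusted p from 0.0618 to 0.169 over the 10 fits that each left out 1 rat. In intact females Tjp1 was 309 CPM (lowest), 316 (median) and 332 (highest). In OVX females it was 309 CPM (lowest), 341 (median) and 351 (highest). Of the 6 OVX rats 4 were above every intact female, and OVX rat 5 was below them all.

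Lsr (ENSRNOG00000021053) encodes angulin-1, which marks the corners where endothelial cells meet in a tricellular contact. Its level in intact males was low, at 5.46 CPM in rat 1, 4.00 in rat 2, 4.98 in rat 3, 4.51 in rat 5 and 3.74 in rat 6, from 54 to 77 reads per library. GDX males had 7.17 CPM in rat 1, 8.71 in rat 2, 7.49 in rat 4, 12.3 in rat 5 and 6.52 in rat 6. Every GDX rat was above every intact male, and GDX rat 5 stood highest. Lsr rose by 0.90 (SE 0.18, 95% interval 0.52 to 1.27, adjusted p = 0.00934), and the log2 fold change was 0.72 to 0.98 when each rat was left out in turn. Lsr in intact females was 4.50 CPM (lowest), 5.33 (median) and 9.54 (highest). It was 6.33 CPM (lowest), 7.68 (median) and 9.52 (highest) in OVX females. The female ranges overlapped, since intact female 5 was narrowly the highest of all 12 females for Lsr, and all 6 OVX rats were above the intact median.

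Of the nutrient carriers, Slc2a1 (ENSRNOG00000007284) encodes the glucose carrier GLUT1. Intact males had 80.1 CPM in rat 1, 71.7 in rat 2, 82.9 in rat 3, 91.4 in rat 5 and 81.1 in rat 6 for Slc2a1. In GDX males Slc2a1 was 101 CPM in rat 1, 102 in rat 2, 89.2 in rat 4, 101 in rat 5 and 94.8 in rat 6. The ranges met at 1 rat, since GDX rat 4 was below intact rat 5, and 4 of 5 GDX rats were above every intact male. Slc2a1 rose by 0.26 (SE 0.06, adjusted p = 0.0169), or 19.7%. Intact females had 75.9 CPM (lowest), 95.9 (median) and 106 (highest). OVX females had 89.1 CPM (lowest), 105 (median) and 112 (highest) for Slc2a1. In intact females the rats fell into a lower pair, rats 4 and 6, and a higher set of 4.

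Slc7a5 (ENSRNOG00000018824) encodes LAT1, a carrier of large neutral amino acids. It ranged from 18.1 to 26.3 CPM in intact males and from 24.8 to 30.7 in GDX males, so the groups overlapped. Its difference of 0.23 (SE 0.092, adjusted p = 0.134) did not pass, except without intact male 2, when it was 0.29 and passed. Mfsd2a (ENSRNOG00000014008) encodes a carrier of lipids that hold docosahexaenoic acid and also restrains vesicle traffic across the endothelium. It ranged from 17.3 to 21.7 CPM in intact males and from 16.9 to 20.1 in GDX males. The Mfsd2a difference was -0.023 (SE 0.073, 95% interval -0.18 to 0.13, adjusted p = 0.886), an interval whose upper bound lies below the log2 fold change of each called member.

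Slco1a4 (ENSRNOG00000047493) encodes an organic anion carrier whose cargo includes conjugated steroids. Its level in intact males was 23.2 CPM in rat 1, 31.97 in rat 2, 32.7 in rat 3, 30.4 in rat 5 and 28.5 in rat 6. Its level in GDX males was 37.7 CPM in rat 1, 39.1 in rat 2, 45.6 in rat 4, 38.9 in rat 5 and 38.5 in rat 6. The groups did not overlap, and GDX rat 4 stood above the other 4, which lay close together. Slco1a4 rose by 0.45 (SE 0.085, adjusted p = 0.00820), or 36.3%. In intact females Slco1a4 was 21.4 CPM (lowest), 31.3 (median) and 35.9 (highest). In OVX females Slco1a4 was 35.3 CPM (lowest), 38.7 (median) and 43.0 (highest). Of the 6 OVX rats 5 were above the highest intact female, the nearest to a full separation among the members in females. How reads shared with close relatives of this gene family were counted is not stated, so part of its count may come from them.

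Of the efflux pumps, Abcb1a (ENSRNOG00000008012) encodes P-glycoprotein, which returns many drugs to the blood. Abcb1a in intact males was 59.3 CPM in rat 1, 66.7 in rat 2, 62.9 in rat 3, 66.9 in rat 5 and 66.0 in rat 6. In GDX males Abcb1a was 79.4 CPM in rat 1, 82.4 in rat 2, 82.2 in rat 4, 82.3 in rat 5 and 73.8 in rat 6. The groups were apart, with 4 of the 5 GDX rats within a narrow band and rat 6 below them. Abcb1a rose by 0.31 (SE 0.049, 95% interval 0.21 to 0.42, adjusted p = 0.00483), the smallest adjusted p of the members, and its log2 fold change within the short libraries was 0.26. Intact females had 49.6 CPM (lowest), 67.5 (median) and 84.8 (highest) for Abcb1a. OVX females had 70.3 CPM (lowest), 80.6 (median) and 92.4 (highest). All 6 OVX rats were above the intact median, and 1 was above the highest intact female. The table has no entry for Abcb1b, the closest relative, whose reads may be counted here.

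Abcg2 (ENSRNOG00000007041) encodes the efflux pump BCRP, which also moves sulphated steroids. It ranged from 3.97 to 5.84 CPM in intact males and from 5.25 to 6.74 in GDX males, and its difference of 0.28 (SE 0.14, adjusted p = 0.231) did not pass. In intact females Abcg2 was 4.24 CPM (lowest), 8.04 (median) and 8.94 (highest). In OVX females it was 5.31 CPM (lowest), 6.17 (median) and 6.41 (highest). Intact females fell into a higher set of 4 and a lower pair, rats 1 and 6, and no OVX rat reached the intact median.

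In females, the matching question was whether the barrier genes differ 2 weeks after removal of the ovaries. The values of 8 of 10 members were above 0, from 0.089 for Tjp1 to 0.49 for Cldn5, and those of Mfsd2a (-0.14) and Abcg2 (-0.25) were below. By edgeR 0 of 10 members were called, where 0.0335% of the 14910 genes tested were. That share is 5 genes, a count that was 113 without intact female 1 and 0 to 38 without each other rat. At an unadjusted p under 0.05 there were 6 (Cldn5, Tjp1, Lsr, Slc7a5, Slco1a4 and Abcb1a), against 10.2% of all genes tested. DESeq2 called 1 member (Slco1a4), and 174 of all genes, and edgeR's exact test called 0 members. The median over the members was 0.22, and over all genes tested 0.00254. The nearest to a call was Slco1a4, at 0.34 (SE 0.10, adjusted p = 0.236, higher in 6 of 6 OVX rats than the intact median), and it was called by edgeR without intact female 1, at 0.40. For Cldn5 the difference was 0.49 (SE 0.17, 95% interval 0.14 to 0.84, adjusted p = 0.316), close in size to that in males with a wider error.

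Several female values differed within the short libraries. The median of the 10 members was 0.41 there and 0.42 with fragment class as a term, against 0.22 with all libraries. Within the short libraries, which left 2 intact females, the log2 fold change was 0.56 for Abcb1a against 0.26 with all libraries. It was 0.46 for Slc7a5 against 0.20, and 0.059 for Mfsd2a against -0.14, a change of sign. None of the 10 members was called by edgeR there, where 7 were under an unadjusted p of 0.05 (against 6.24% of all genes), and no other tool was run on the short libraries. Intact female 4, which is in the short class, was the lowest of its group in 8 of 10 members.

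**Figure D2:**
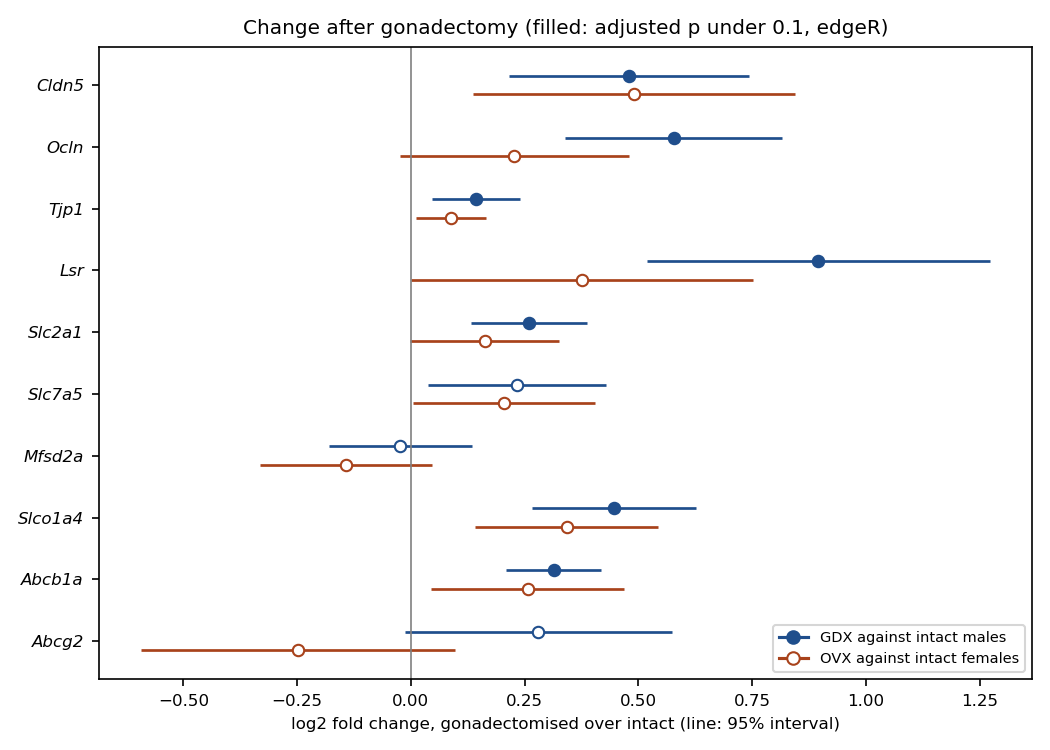
Log2 fold change of each barrier gene after gonadectomy in males (5 against 5 rats) and females (6 against 6), with 95% intervals and filled points where the adjusted p was under 0.1. The 7 filled points are all male and lie between 0.14 for Tjp1 and 0.90 for Lsr.

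Whether the response differed between the sexes was tested directly, as the male minus the female response over the 22 rats. By edgeR 0 of 10 members were called, where 0.116% of the 15562 genes tested were, and DESeq2 called 0. The count of 18 genes behind that share was 275 without GDX male 1, 111 without GDX male 2, 108 without intact female 1 and 1 to 44 without each other rat. The value of Abcg2 was 0.53 (SE 0.22, 95% interval 0.074 to 0.99, adjusted p = 0.337), and it was the only member, 1 of 10, under an unadjusted p of 0.05, against 11.6% of all genes. Lsr had a difference of 0.52 (SE 0.27, 95% interval -0.029 to 1.08) and Ocln of 0.35. For Cldn5 it was -0.007 with an interval of -0.50 to 0.49, so differences within those bounds were not resolved. Within the short libraries 7 of 10 values were below 0, among them Cldn5 (-0.38), Slc7a5 (-0.33) and Abcb1a (-0.30), against 1 of 10 with all libraries. By edgeR, the only tool run on them, 0 of 10 were called there and 1 was under an unadjusted p of 0.05 (Abcb1a), against 10.1% of all genes. The calls in males and their lack in females are therefore not shown to differ.

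The sexes were also compared at like gonadal state. Among intact rats, with all libraries, every member had a lower value in males, from -0.027 for Slc7a5 to -0.58 for Abcg2. None passed edgeR's test, so 0 of 10 were called, where 4.01% of the 14937 genes tested were, with 2 under an unadjusted p of 0.05 (Lsr and Abcg2), against 15.5% of all genes. DESeq2 called 1 member (Abcg2) and 820 of all genes. The edgeR count over all genes, 599, was 352 without intact male 1, 385 without intact male 5 and 409 to 777 without each other rat. The Abcg2 value was -0.58 (SE 0.19, adjusted p = 0.137), and it was called without intact female 1, at -0.66, without intact female 6, at -0.69, and with all 22 rats in 1 fit, at -0.59. Within the short libraries, which left 2 intact males and 2 intact females, it was -0.37. There 6 members had the opposite sign, higher in males, from 0.075 for Mfsd2a to 0.33 for Slc7a5, with Cldn5, Ocln, Slco1a4 and Abcb1a between them. By edgeR, the only tool run on those libraries, 0 of 10 were called and 2 were under an unadjusted p of 0.05 (Slc7a5 and Abcb1a), against 11.4% of all genes. Between GDX males and OVX females, all of the short class, the members lay between -0.12 for Cldn5 and 0.11 for Lsr. There 0 of 10 were called by edgeR, where 0.232% of the 15084 genes tested were, 0 were under an unadjusted p of 0.05, against 9.37% of all genes, and DESeq2 called 0. The 35 genes called in all were 23 without OVX female 1 and 24 to 44 without each other rat. Both sex comparisons share their rats with the gonadectomy comparisons above.

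The order of the 4 group means was alike for most members. With all libraries intact males were the lowest group for 9 of 10 members, Mfsd2a being the exception. That order depended on library class: among short libraries, with 2 intact males and 2 intact females, intact males were lowest for 4 members (Tjp1, Lsr, Slc2a1 and Abcg2) and intact females for the other 6. With all libraries GDX males were highest for 6 members (Ocln, Tjp1, Lsr, Slc7a5, Slco1a4 and Abcb1a), OVX females for Cldn5 and Slc2a1, and intact females for Mfsd2a and Abcg2. For the 8 members other than Mfsd2a and Abcg2, the means of GDX males and OVX females were both above the means of the 2 intact groups. The mean of Slco1a4, for example, was 40.0 ± 3.19 CPM (SD, n = 5) in GDX males and 38.5 ± 2.73 (n = 6) in OVX females. It was 30.4 ± 5.43 (n = 6) in intact females and 29.4 ± 3.81 (n = 5) in intact males. Rats of 1 group tended to be high or low in many members at once: intact female 5 was the highest of its group in 9 of 10 and intact female 4 the lowest in 8, and intact male 1 and GDX male 6 were each the lowest of their group in 5, as were OVX females 3 and 5.

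Long and short fragment libraries were compared among the 11 intact rats with sex as a term, to give the size of the class difference averaged over the sexes. The members lay between -0.052 for Ocln and 0.28 for Lsr. By edgeR 0 of 10 were called, as were 0% of the 15723 genes tested, with 0 members under an unadjusted p of 0.05, against 7.75% of all genes. DESeq2 called 0 members and 59 of all genes. Without the filter on low counts edgeR called 0 members and 210 of all 23561 genes. Under an unadjusted p of 0.05 there was then 1 member (Abcb1a, 0.18), against 6.68% of all genes. The widest of these intervals were -0.39 to 0.47 for Cldn5 and -0.26 to 0.59 for Abcg2, so class differences of either sign within those bounds were not resolved. For every member but Lsr, the long mean was below the short mean in intact males, some by little, and above it in intact females. Ocln averaged 8.53 CPM in long and 11.4 in short libraries of intact males, and 12.3 and 10.1 in intact females. For Abcb1a these means were 62.7 and 66.8 in males, and 73.7 and 54.0 in females. Whether the class difference varied with sex was not tested.

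Markers of the vessel wall moved with the members. Of 20 endothelial markers tested, 12 rose in GDX males and 0 fell, against 13.4% of all genes called and 6.78% called higher. The median was 0.49, with 20 of 20 values above 0. Like the members, this list was chosen with earlier results of these data known. Tek (0.49 ± 0.091, SE), the angiopoietin receptor, and Kdr (0.64 ± 0.13), a VEGF receptor, were among the 12. So were Vwf (0.77 ± 0.14), which encodes von Willebrand factor, and Itm2a (0.42 ± 0.084). The summed level of the list was 224 ± 30.7 CPM (SD, n = 5) in intact males and 317 ± 39.9 in GDX males. In single rats it ran from 181 to 261 in intact and from 268 to 368 in GDX males, so these ranges did not overlap. With fragment class as a term 1 of the 20 was called (Itm2a), at a median of 0.34, where 796 of all 14931 genes were called. Within the short libraries, tested by edgeR alone, 0 were called, at a median of 0.34. There 7 were under an unadjusted p of 0.05, against 17.8% of all genes. In females 2 rose, Kdr (0.77 ± 0.13) and Cd93 (0.99 ± 0.18), with a median of 0.44 and 19 of 20 values above 0. Over all genes 0.0335% were called. DESeq2 called 6 of the list in females and the exact test 4, against 174 and 95 of all genes. Both edgeR calls were lost, at 0 of 20, with fragment class as a term (12 under an unadjusted p of 0.05, median 0.55) and within the short libraries (13 under it, median 0.54), each run in edgeR alone. Over all genes 7.14% were under that p with the class term and 6.24% within the short libraries. The list summed to 245 ± 55.3 CPM in intact and 339 ± 56.4 in OVX females (n = 6 each). Its most abundant gene was Flt1, none of its genes was at 0 in all rats, and Pecam1 is not in the table.

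Meningeal and fibroblast markers were followed in the same way, on a list also chosen with earlier results of these data known. Of 18 tested, 17 rose in GDX males (median 1.55) and 0 fell, against 13.4% of all genes called and 6.78% called higher. Col3a1 (1.73 ± 0.29), a fibrillar collagen, Igf2 (1.60 ± 0.29), Slc6a13 (1.57 ± 0.26) and the transcription factor gene Foxc1 (1.19 ± 0.17) had the smallest adjusted p. With fragment class as a term 12 of the 18 were called, at a median of 1.78, and within the short libraries 9, at a median of 1.78, against 1.55 with all libraries. Those settings called 796 of 14931 and 440 of 15553 genes. Their summed level was 483 ± 66.1 CPM (SD) in intact males, with 397 to 573 in single rats. In GDX males it was 813 ± 201, with 574 in rat 1, 681 in rat 2, 829.8 in rat 4, 1098 in rat 5 and 881 in rat 6. GDX rats 1 and 2 thus stood below the other 3, and rat 1 was level with the highest intact male. The same 2 sets appeared over all genes, where the chi-square per gene between libraries was 5.35 for GDX rats 1 and 2, 7.65 to 10.6 among rats 4, 5 and 6, and 11.6 to 23.5 between the sets. The list summed to 706 ± 154 in intact and 807 ± 105 in OVX females. In females 0 of 18 were called by edgeR, by DESeq2 or by the exact test, and 0 were under an unadjusted p of 0.05, against 10.2% of all genes. For the male minus the female response edgeR, the only tool run on the list there, called 0 of 18. Under an unadjusted p of 0.05 there were 14, against 11.6% of all genes, and the median was 1.29. In intact males 12 of the 18 were called lower than in intact females, with a median of -1.23, against 4.01% of all genes called. Cldn11, the most abundant gene of the list at 252 CPM, is also made by oligodendrocytes.

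The part of these cell types in the members' differences was not tested, but the members were refitted with each list's mean log2 CPM as a term. With the endothelial level as a term 0 of 10 members were called in males, where 335 of all genes tested were, and 1 member (Lsr) was under an unadjusted p of 0.05, against 16.3% of all genes. Cldn5 then turned to -0.14 and Slc7a5 to -0.055, while Lsr was 0.93 and Slco1a4 was 0.27. In females with this term Cldn5 was -0.062, Abcb1a -0.015, Lsr -0.027 and Slco1a4 0.038. With the meningeal level as a term 0 of 10 members were called in males, where 7 of all genes tested were, and 6 members were under an unadjusted p of 0.05 (Cldn5, Ocln, Slc2a1, Slc7a5, Slco1a4 and Abcb1a), against 5.61% of all genes. Under that term Cldn5 was 0.85 and Slc7a5 0.56, both above their values without it, while Lsr was 0.37. Both terms were fitted in edgeR alone. Each term overlaps strongly with the groups, so the group and the marker level cannot be told apart in these fits.

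**Figure D3:**
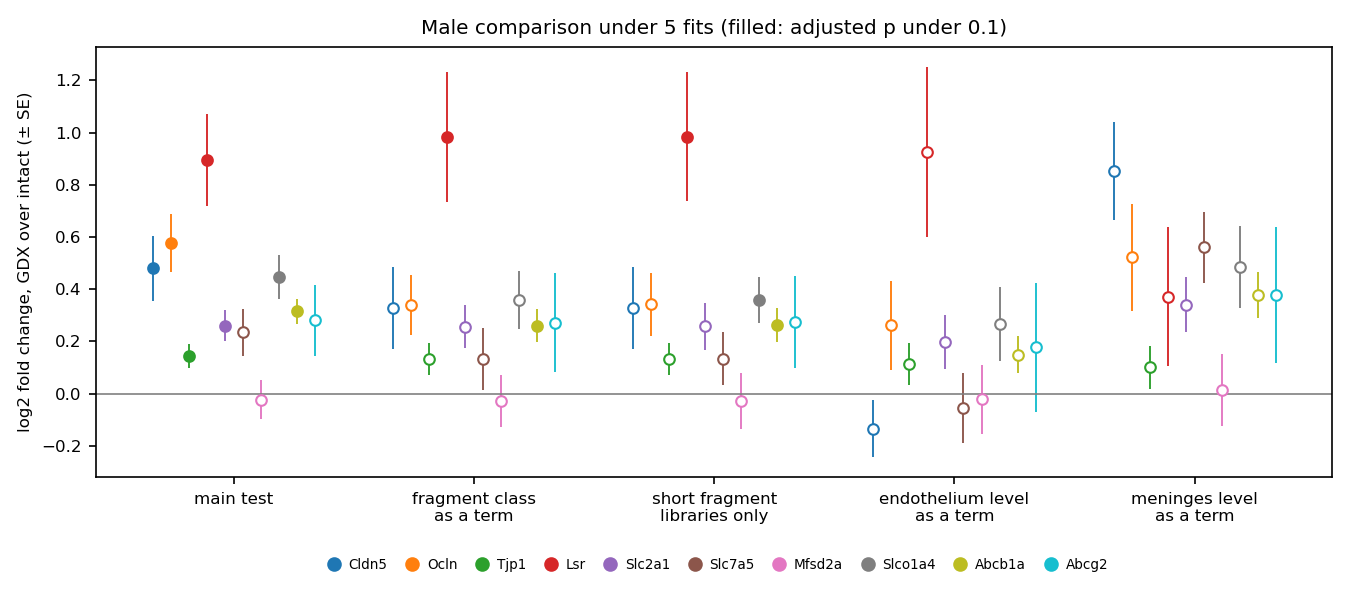
Log2 fold change (± SE) of each barrier gene between GDX and intact males under 5 fits, filled where the adjusted p was under 0.1. Lsr was 0.98 within short fragment libraries and 0.37 with the meningeal level as a term, and Cldn5 was -0.14 with the endothelial level as a term.

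The other cell type lists differed in size and sign in males. They too were chosen with earlier results of these data known. Pericyte markers had 4 called higher of 9 tested (Rgs5, 0.65 ± 0.13; Vtn, 0.59 ± 0.15; Pdgfrb, 0.27 ± 0.091; Anpep, 0.69 ± 0.24) and smooth muscle markers 2 of 5 (Tagln, 0.58 ± 0.12; Myh11, 0.38 ± 0.085), with 0 called lower in either. Astrocyte markers had 3 called higher of 10 (Gfap at 0.38 ± 0.059, S100b at 0.26 ± 0.062 and Aqp4 at 0.18 ± 0.044). Oligodendrocyte markers had 2 called higher of 8 (Ermn at 0.24 ± 0.051 and Mbp at 0.17 ± 0.053), with 0 called lower in either list. The rest of these 2 lists was mixed in sign. Of the astrocyte values 6 of 10 were above 0 (median 0.10, lowest -0.14), and of the oligodendrocyte values 5 of 8 (median 0.077, lowest -0.11). Red cell genes were higher in GDX males at 3 of 3 tested (Hba-a2, 1.72 ± 0.41; Hbb, 1.45 ± 0.44; Slc4a1, 1.83 ± 0.62). Neuron markers had 5 called lower of 10, namely Slc17a6 (-0.31 ± 0.055), Syp (-0.25 ± 0.063), Rbfox3 (-0.33 ± 0.082), Slc32a1 (-0.43 ± 0.11) and Snap25, and motor neuron markers 1 of 8, Slc18a3 (-0.43 ± 0.13), against 13.4% of all genes. By edgeR 0 of 7 microglia markers (1 under an unadjusted p of 0.05) and 0 of 4 ependymal markers (0 under it) were called. Over all genes tested in males 23.8% were under that p. The values nearest to a call were 0.36 for P2ry12 and 0.20 for C1qa in microglia, and -0.12 for Dnah9 and 0.18 for Tmem212 in ependyma.

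The male calls in these lists were also looked at within the short libraries, by edgeR alone, a setting chosen for them after the data had been seen. Over all genes that setting called 440 of 15553, with 17.8% under an unadjusted p of 0.05. Neuron markers had 5 called lower of 10 there (Syt1, Syp, Gad1, Slc17a6 and Slc32a1, named after their values were seen), at a median of -0.32 against -0.26 with all libraries. Motor neuron markers had 0 called of 8, with 3 under an unadjusted p of 0.05, and a median of 0.012 against -0.15. Pericyte markers had 2 called higher of 10 (Anpep and Vtn), at 0.13 against 0.18, and smooth muscle markers 0 of 5, with 2 under that p, at 0.27 against 0.54. Astrocyte markers had 2 called higher of 10 (Gfap and S100b), at 0.13 against 0.10, and oligodendrocyte markers 1 of 8 (Ermn), at 0.092 against 0.077. Red cell genes had 0 called of 4, with 3 under that p, at 1.79 against 1.72.

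The summed red cell list was 9.37 ± 4.23 CPM in intact males and 29.9 ± 20.9 in GDX males (SD, n = 5), and 12.36 ± 5.35 and 22.8 ± 4.60 in intact and OVX females (n = 6). In single GDX males it was 12.3 in rat 1, 13.3 in rat 2, 62.5 in rat 4, 24.3 in rat 5 and 37.4 in rat 6. GDX rats 1 and 2 were again below the other 3, and below intact male 1. The source of these reads and their part in the members' values were not tested. In females these lists of other cell types had, with all libraries, 0 genes called by edgeR, the only tool run on them. Under an unadjusted p of 0.05 there were 2 of 9 pericyte, 3 of 5 smooth muscle, 4 of 10 astrocyte, 1 of 8 oligodendrocyte, 2 of 7 microglia, 5 of 10 neuron, 7 of 8 motor neuron, 0 of 4 ependymal and 4 of 4 red cell genes, against 10.2% of all genes. Their medians ran from -0.35 for motor neurons to 0.87 for red cells. Motor neuron markers also differed with library class: among intact rats 8 of 8 had higher values in long fragment libraries, with a median of 0.40, 0 called by edgeR and 8 under an unadjusted p of 0.05. Of 10 neuron markers 6 were under that p in this comparison and 0 were called, with values from -0.47 to 0.33. Over all genes the share under it was 7.75%. Long libraries were 4 of 6 in intact and 0 of 6 in OVX females. Within the short libraries, which left 2 intact females, edgeR called 1 gene of these lists in females (Myh11, higher, of 5 smooth muscle markers), a setting chosen for them after the data had been seen. Under an unadjusted p of 0.05 there were then 4 of 10 pericyte, 5 of 5 smooth muscle, 3 of 10 astrocyte, 0 of 10 neuron, 0 of 8 motor neuron and 3 of 4 red cell genes, and 0 of the oligodendrocyte, microglia and ependymal lists, against 6.24% of all genes. The female median of the motor neuron list was -0.14 there. With fragment class as a term there were 3 of 9 pericyte, 4 of 5 smooth muscle, 3 of 10 astrocyte, 0 of 8 oligodendrocyte and 0 of 7 microglia genes under that p. In the same fit there were 2 of 10 neuron, 1 of 8 motor neuron, 0 of 4 ependymal and 0 of 4 red cell genes, against 7.14% of all genes. The most abundant genes were Cspg4, Myh11, Gfap, Mbp, Csf1r, Nefm, Prph, Dnah9 and Hba-a2 in that order of lists, and no gene of these lists was at 0 in every rat.

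**Figure D4:**
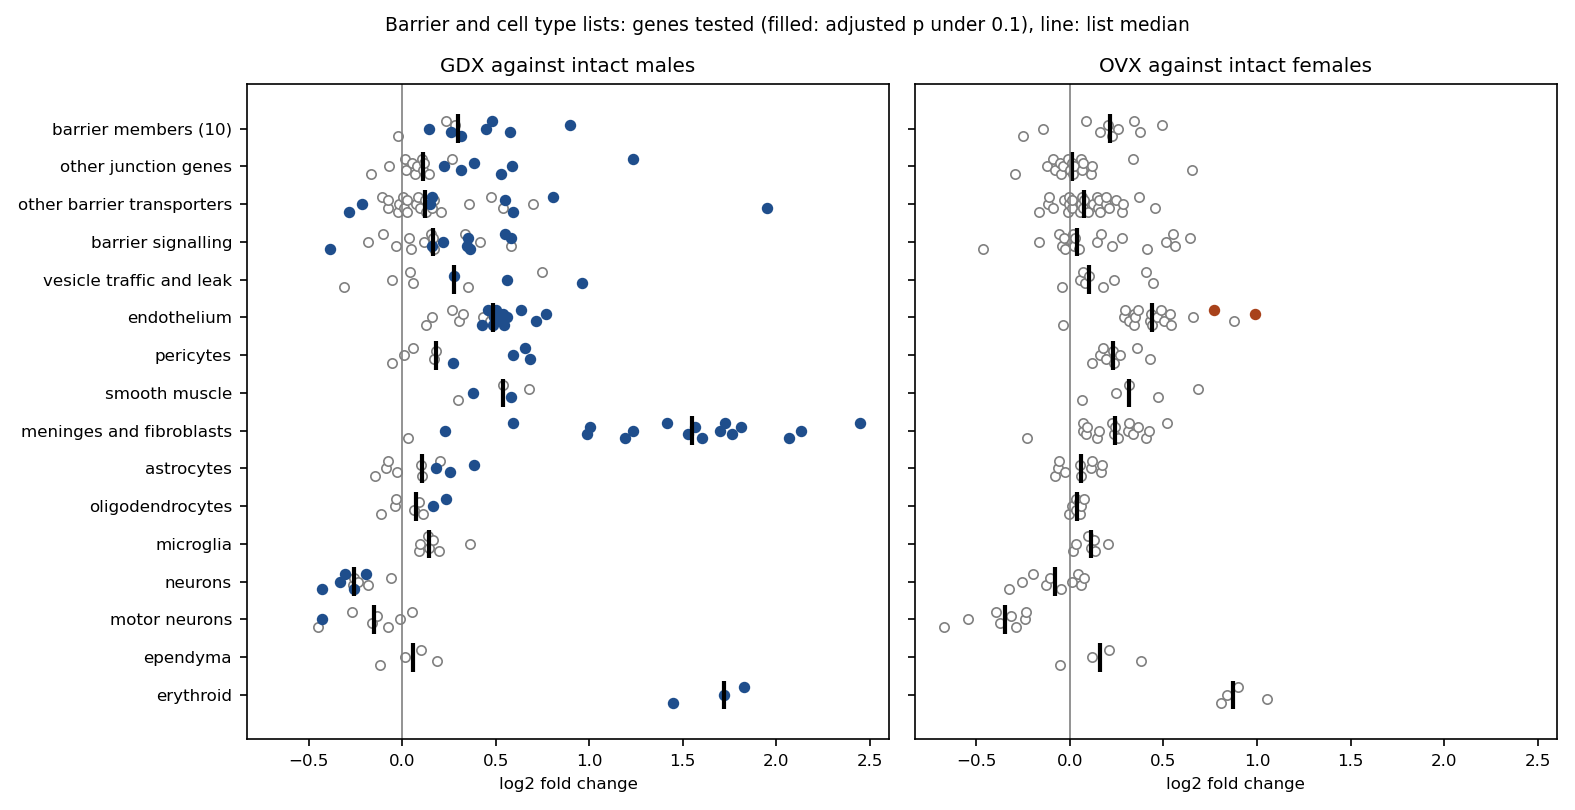
Log2 fold change of each gene tested in the barrier set and 15 other lists, in males and females, with filled points where the adjusted p was under 0.1 and a line at each list median. The barrier set's median was 0.30 in males and 0.22 in females, the endothelial list's 0.49 and 0.44, and the meningeal list's 1.55 and 0.24.

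Within groups, the level of several members followed that of the endothelial list from rat to rat. Over the 22 rats, with each group's mean subtracted, Cldn5 and the list's mean log2 CPM had Pearson's r = 0.92 and Spearman's rho = 0.92. A two-sided permutation test that shuffled rats within their group 100000 times gave p = 1e-05 for each, the smallest it can give, or 0.0001 adjusted over the 10 members. This relation was chosen for testing after the data had been seen. Without the 2 rats farthest from the median of the list, intact female 4 and OVX female 3, r was 0.89 for Cldn5, and it was 0.94 within the 15 short and 0.92 within the 7 long libraries. Ocln (r = 0.82, rho = 0.78), Slco1a4 (0.77, 0.77), Abcb1a (0.72, 0.64), Slc7a5 (0.65, 0.57) and Slc2a1 (0.63, 0.67) had permutation p from 2e-05 to 0.0109 for r, or 0.0001 to 0.0181 adjusted. Their r without the 2 farthest rats was 0.46 for Slc7a5 to 0.73 for Ocln, and it was above 0.5 in both classes for each of these 5.

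Lsr, Tjp1, Mfsd2a and Abcg2 followed the endothelial list less closely. Lsr had r = 0.42 and rho = 0.39 (permutation p = 0.104 and 0.127, n = 22), and Tjp1 r = 0.35 and rho = 0.36 (permutation p = 0.111 and 0.107). Mfsd2a had r = 0.26, which was -0.12 without the 2 farthest rats and so rested on them, and 0.38 in the 15 short and -0.24 in the 7 long libraries, with rho = 0.21 (permutation p = 0.358 and 0.432). Abcg2 had r = 0.26 and rho = 0.21 (permutation p = 0.400 and 0.430), and likewise differed in sign between classes, at -0.29 in the 15 short and 0.68 in the 7 long libraries. The relation was not particular to the endothelial list. With the pericyte list r was 0.89 for Cldn5, 0.71 for Ocln and 0.58 for Slco1a4, and it was above the endothelial value for the other 7 members, among them Abcb1a (0.78), Slc2a1 (0.74), Slc7a5 (0.71), Lsr (0.52) and Mfsd2a (0.48). With the smooth muscle list it was 0.75 for Abcb1a and 0.72 for Ocln, and with the meningeal list 0.45 for Lsr and -0.39 for Cldn5. These r values with other lists are given with no test.

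**Figure D5:**
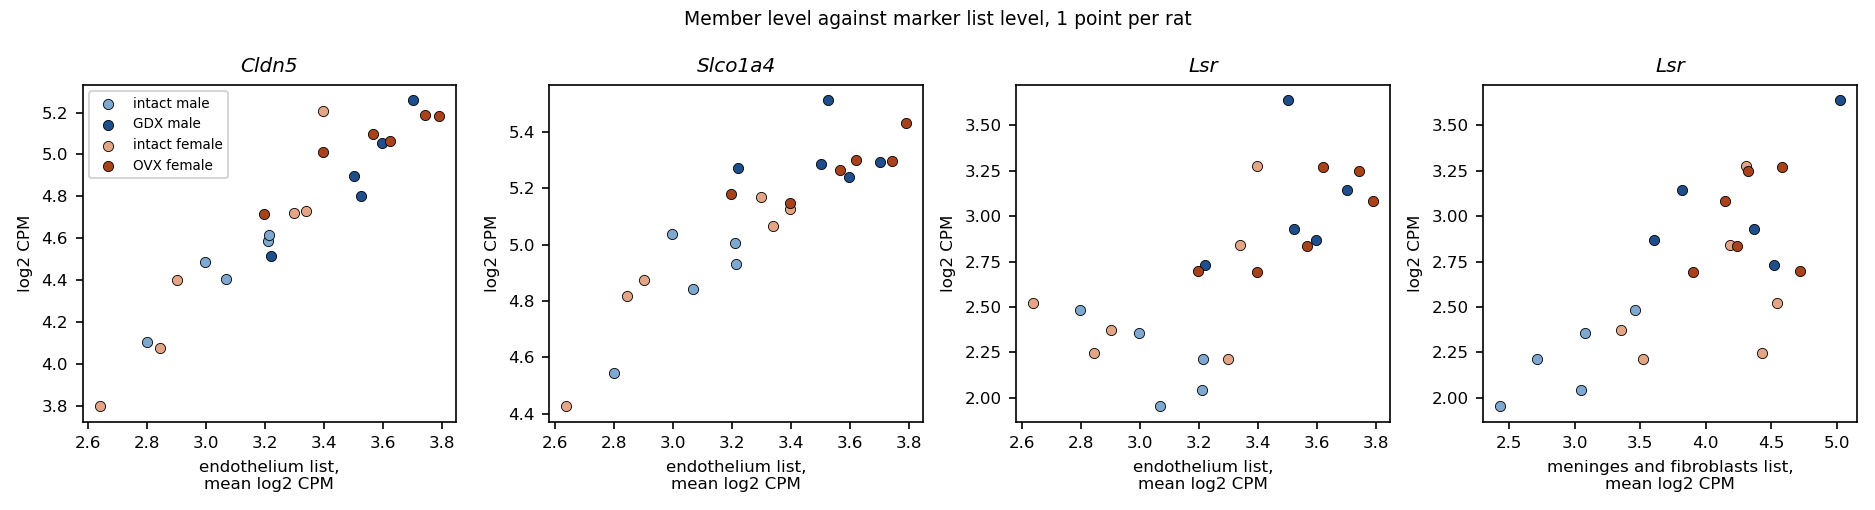
Log2 CPM of Cldn5, Slco1a4 and Lsr against the mean log2 CPM of the endothelial list, and of Lsr against the meningeal list, with 1 point per rat coloured by group. After subtraction of group means the r over 22 rats with the endothelial list was 0.92 for Cldn5, 0.77 for Slco1a4 and 0.42 for Lsr.

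The members also varied with each other. Of the 45 pairs of members all had an r above 0 over the 22 rats after subtraction of group means, from 0.043 to 0.79 with a median of 0.44, and 16 were above 0.5. The highest was between Slc7a5 and Abcb1a. Among the other 15561 genes kept, those most like Cldn5 were Tie1 (0.91), Adgrf5 (0.91) and Flt1 (0.90), which are endothelial receptor genes. Most like Ocln were F8 (0.88), Rnf31 (0.87) and Tie1 (0.87), and most like Slco1a4 were AABR07029661.1 (0.84), Rgs5 (0.81) and Adgrf5 (0.81). For Abcb1a they were Xdh (0.86), F8 (0.83) and Pold1 (0.83), for Slc2a1 Gipc1 (0.83), Tubb4a (0.81) and Unc5b (0.80) and for Slc7a5 Fam222a (0.83), Col11a2 (0.83) and Pold1 (0.83). Lsr had Vtn (0.78), Piezo1 (0.78) and Plxnd1 (0.77), the first of which encodes vitronectin, a marker on the pericyte list. Tjp1 was followed by Cd55 (0.79), Kif2c (0.76) and Axin2 (0.74), Mfsd2a by Synj2 (0.82), Emilin2 (0.77) and Sox8 (0.77) and Abcg2 by AC118957.1 (0.80), Pdgfd (0.74) and AC096330.1 (0.71). These values are Pearson's r given as a description with no test, and with Spearman's rho in its place 15 of the 30 genes were among the nearest 3.

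Other genes of the barrier were followed in 4 lists of their own, whose counts stand against 13.4% of all genes called in males (6.78% higher) and 10.2% under an unadjusted p of 0.05 in females. These 4 lists were also chosen with earlier results of these data known. Of 18 further junction genes tested in males, 6 rose and 0 fell, with a median of 0.11. Cdh5 (1.23 ± 0.15), the cadherin of endothelial contacts, had the largest rise, and Esam (0.59 ± 0.13), Pkp4 (0.32 ± 0.043) and Jam2 (0.22 ± 0.058) rose with it. With fragment class as a term 4 were called, and within the short libraries 3. Cldn25 was at 0 in every rat, and Cldn3, Marveld3 and Ildr1 were below the filter. In females 0 of 19 were called by edgeR (3 under an unadjusted p of 0.05, 1 called by DESeq2, 0 by the exact test), and Esam was 0.65 ± 0.20 and Cdh5 0.33 ± 0.15.

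Of 29 further transporters, 6 rose and 2 fell in GDX males, with a median of 0.12. Slc22a8 (0.81 ± 0.17), an organic anion carrier, the prostaglandin carrier gene Slco2a1 (1.95 ± 0.50) and the transferrin receptor gene Tfrc (0.16 ± 0.052) rose, while Abcc5 (-0.28 ± 0.059) and Lrp8 (-0.21 ± 0.069) fell. Slco2a1 averaged 0.476 CPM in intact males, a low level. In females 0 of 29 were called by edgeR (9 under an unadjusted p of 0.05, 2 called by DESeq2 and 2 by the exact test), with Slco3a1 at 0.21 ± 0.041 and Slco2b1 at 0.28 ± 0.061. Abcb1b is not in the table.

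The list of signalling genes that build and keep the barrier, mostly of the Wnt and hedgehog pathways, had 7 called higher and 1 lower of 20 in GDX males. Apcdd1 (0.58 ± 0.072), a Wnt inhibitor, Sox17 (0.55 ± 0.17), and Reck (0.35 ± 0.10) with its partner Adgra2 (0.36 ± 0.11), which serve Wnt7 signalling, rose. Shh (-0.39 ± 0.13), which encodes Sonic hedgehog, fell. In females 0 of 20 were called by edgeR (10 under an unadjusted p of 0.05, 3 called by DESeq2 and 2 by the exact test), with Shh at -0.46 ± 0.11 and Apcdd1 at 0.41 ± 0.10. Of 9 genes of vesicle traffic and leak, 3 rose and 0 fell in GDX males: Cavin1 (0.96 ± 0.13), Cavin2 (0.56 ± 0.14) and Cav1 (0.28 ± 0.073), which build caveolae. In females 0 of 9 were called by edgeR (4 under an unadjusted p of 0.05, 0 by DESeq2 and 0 by the exact test), with Cav1 at 0.18 ± 0.054 and Icam1 at 0.44 ± 0.13. With fragment class as a term the male counts were 2 of 29 for transporters, 1 of 20 for signalling and 1 of 9 for vesicle genes, where 796 of all 14931 genes were called. Within the short libraries each of the 3 lists had 1 called, where 440 of 15553 genes were. In females edgeR, the only tool run on the short libraries, called 0 genes of the 4 lists there, with 1 of 19 junction, 4 of 29 transporter, 7 of 20 signalling and 2 of 9 vesicle genes under an unadjusted p of 0.05, against 6.24% of all genes. With the endothelial level as a term, fitted in edgeR alone, the male counts were 2 for junction genes, 0 for transporters, 1 for signalling and 1 for vesicle genes.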

How the data were processed

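RNA of 22 rat cord samples was sequenced, 1 library per rat. The deposited values are raw counts of reads per gene: the authors used Trimmomatic for trimming, Hisat2 for mapping to Rnor_6.0 and Subread featureCounts for counting (strand and multi-mapping settings not stated). The submitters' processing notes name TopHat2 2.0.13 instead. Counts were fitted in R 4.3.3 with edgeR 4.0.16 (filterByExpr on the groups compared, TMM factors, glmQLFit and glmQLFTest), across all genes, with Benjamini-Hochberg adjustment and a call at adjusted p under 0.1. DESeq2 1.42.0 and edgeR's exact test were among the alternatives. Log2 CPM used a prior count of 2. The members and lists were chosen with earlier results of these data known. Named genes were all 10 members, up to 4 called genes per list and direction with the smallest adjusted p (2 as values where none was called), the most abundant gene of each cell type list, and the 3 genes most like each member. Snap25 and genes called within the short libraries were named outside that rule, after their values were seen. Listed genes not in the table were not analysed (9), and 2 duplicated symbols were followed on the entry with most reads. The code was tested on simulated data. No library was left out.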

Additional observations from a re-analysis of the deposited data

Results flagged for a closer look

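Mfsd2a in GDX male 4 was 16.9 CPM, apart from the other 4 GDX males, which lay between 19.5 and 20.1 CPM. Slco1a4 in the same rat was 45.6 CPM, above the 37.7 to 39.1 CPM of the other 4. Abcg2 in OVX female 3 was 5.31 CPM, below the other 5 OVX females. Each lies farther from its group than Dixon's 95% critical value for a group of that size. They are 3 of 48 groups searched over 12 measures, and chance gives about 1 in 20.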

How the results depend on the processing

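Of the counts of called members, 109 were within 1.5 times of the reported count under an alternative and 10 were not. Only the male comparison had a reported count above 0, and elsewhere an unchanged 0 was taken as within. In males the count of 7 was 6 or 7 under DESeq2, with RLE factors, without a filter, with a 1 CPM filter, at adjusted p under 0.05, with the exact test, with all 22 rats in 1 fit and with rat number as a block (the numbers do not pair rats), and 6 to 7 with each rat left out. It was 2 with fragment class as a term, 3 with short libraries only, 0 with the endothelial level as a term and 0 with the meningeal level as a term. In females the count of 0 was 1 with DESeq2 and 0 to 1 with each rat left out. Between intact sexes the count of 0 was 1 with DESeq2, 1 with all rats in 1 fit and 0 to 1 with each rat left out. It was 0 under each alternative between GDX males and OVX females, for the sex difference in response and between library classes. Of the members' log2 fold changes, 1151 kept their side of the threshold (65 of them changed sign, uncalled both times), 31 lost the call, 7 gained it and 1 called value turned, Cldn5 in males with the endothelial level as a term (-0.14). The cause was not tested. The count of all genes called in males, 1995, was 796 with the class term, 440 with short libraries, 335 with the endothelial and 7 with the meningeal term, 1274 with rat number as a block, 1265 at adjusted p under 0.05 and 1202 (without GDX male 5) to 2446 (without GDX male 1) with each rat left out. The lowest counts were 54 reads for Lsr and 56 for Abcg2.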
